A study of Rattus norvegicus with 9 samples.

Results

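Late pubertal female rats were compared with early pubertal female rats in the hypothalamus, on Affymetrix rat expression arrays. The comparison used the 6 arrays whose titles name these stages, of 9 arrays in the series, and members were chosen by those titles alone. Late pubertal animals were 31 days old and carried replicate numbers 12, 14 and 20. Early pubertal animals were 29 days old and carried replicate numbers 7, 8 and 10. The other 3 arrays came from juvenile animals of 26 days, labelled as controls, which entered the fit through the shared estimate of spread and are given as a reference level. All animals were normally developing females with no treatment, and each array came from the hypothalamus of 1 rat, so that n = 3 per stage counts animals. The labels give no strain, estrous stage or hormone measurement, and the stages are 2 days apart.

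The hypothalamus drives puberty through neurons that release gonadotropin-releasing hormone (GnRH), whose pulses make the pituitary secrete luteinizing and follicle-stimulating hormone. Peptides such as kisspeptin, neurokinin B and dynorphin, the transmitters glutamate and GABA, and growth factors from glia set the rate of these pulses. In the female rat, rising ovarian estrogen feeds back on this network as the first ovulation approaches. The comparison asks which transcripts differ between the beginning and the later phase of this transition.

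Values are log2(signal + 16) after quantile normalization, and a difference is the late minus the early pubertal mean with the standard error (SE) of the limma fit. Differences on this scale understate those of dim probe sets. The tissue carried transcripts that mark hypothalamic neurons in both stages. Pmch, the melanin-concentrating hormone precursor, had mean levels of 12.71 in late and 12.78 in early pubertal animals, Avp (vasopressin) 11.83 and 11.77, and Oxt (oxytocin) 11.71 and 11.56. Late pubertal arrays were brighter as deposited, with a median signal of 109 ± 11.7 (SD, n = 3) against 90.9 ± 10.7. An exact two-sided permutation test gave p = 0.1, the smallest value that 3 against 3 arrays allow. Late pubertal replicate 12, at 102, was nearly equal to early pubertal replicate 7, at 101. The juvenile arrays had median signals of 113, 108 and 102, beside the late pubertal ones. The actin control's 3′/5′ ratio, which rises with RNA degradation, was 2.78 ± 0.483 (SD, n = 3) in late and 2.54 ± 0.367 in early pubertal animals (exact permutation p = 0.5).

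Limma with Benjamini-Hochberg adjustment at 0.05 called 0 of 18625 probe sets between late and early pubertal animals, which is 0% of those tested. The lowest adjusted p was 0.914. At an unadjusted limma p below 0.05 there were 548 probe sets higher in late pubertal animals, 2.94% of those tested, and 423 lower, 2.27%. Arrays of the 2 stages did not overlap for 1112 probe sets higher in late pubertal animals (5.97%) and for 1000 lower (5.37%). The middle probe set differed by 0.10 in either direction, 99% of probe sets by less than 0.59, and only 20 probe sets by more than 1, of which 14 were higher and 6 lower. Without late pubertal replicate 20 the counts at an unadjusted limma p under 0.05 were 318 and 298, and without early pubertal replicate 7 they were 833 and 579. All genes below are therefore described by their values, and none passed the test over all probe sets.

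**Figure D1:**
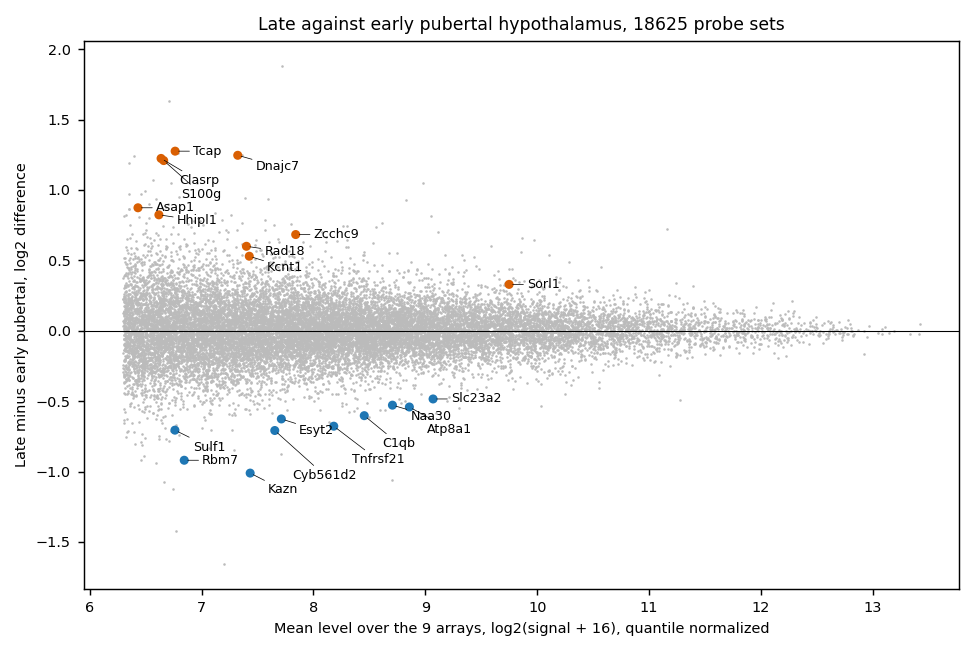
Each point is a tested probe set, with its mean level over the 9 arrays on the horizontal axis and the late minus early pubertal difference on the vertical axis, both in log2 units. The 10 leading named genes in each direction are coloured and labelled. They were chosen by p and not by size, and run from 1.28 for Tcap to −1.01 for Kazn. All tested probe sets run from −1.65 to 1.88. None of the labelled genes has a limma adjusted p under 0.05.

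The genes with the smallest p among those that were higher in late pubertal animals and did not overlap between stages had diverse roles. They included calcium binding, ion channel, DNA repair and RNA-processing genes, with folds from 1.26 to 2.42. The signal filter kept probe sets with a mean over the 9 arrays above 6.301. Early pubertal means of S100g, Tcap, Hhipl1, Asap1 and Clasrp lay below that level, at 6.24, 6.07, 5.97, 5.85 and 6.01. Their folds therefore rest on dim early pubertal values. S100g lay below it in juvenile animals too, and so passed the filter only through its late pubertal level. S100g encodes calbindin-D9k, a calcium-buffering protein that vitamin D and estrogen induce in gut and uterus. Its levels were 7.18, 7.68 and 7.48 in late pubertal replicates 12, 14 and 20 and 6.89, 6.18 and 5.65 in early pubertal replicates 7, 8 and 10. Late pubertal animals were thus all above the highest early pubertal animal, and the early pubertal spread was wide. The difference was 1.21 ± 0.27 (SE, n = 3 per stage), a 2.31-fold higher level with a limma adjusted p of 0.914, and juvenile animals lay at 6.30 ± 0.0994 (SD).

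Tcap, which encodes the titin-binding protein telethonin of striated muscle, had the widest difference of the 10, at 1.28 ± 0.29. Late pubertal levels were 7.18, 7.43 and 7.43, against 6.15, 5.28 and 6.78 in early pubertal animals. The 3 juvenile arrays lay close together between the stages, at 6.86, 6.89 and 6.88. Clasrp, a serine- and arginine-rich protein linked to splicing, stood at 7.05, 7.35 and 7.31 in late against 6.10, 6.12 and 5.82 in early pubertal animals, a difference of 1.22 ± 0.30. Its juvenile levels ran from 5.92 to 7.40 and so spanned both stages.

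Dnajc7, a cochaperone of Hsp70 and Hsp90, was measured at 7.73, 7.55 and 7.75 in late and at 6.81, 6.94 and 5.53 in early pubertal animals. Its difference was 1.25 ± 0.30 on this probe set, or 0.80 without early pubertal replicate 10, and 0.02 on its other. Hhipl1, a relative of the hedgehog-interacting protein, had levels of 7.05, 6.78 and 6.56 against 6.16, 5.85 and 5.91, a difference of 0.82 ± 0.19, with 0.03 on the other probe set. For Asap1, which regulates Arf GTPases and the actin cytoskeleton, the difference was 0.87 ± 0.21, while its other 4 probe sets gave 0.18, 0.10, 0.03 and 0.09. These 3 genes therefore differed on a single probe set each.

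Kcnt1 encodes a sodium-activated potassium channel. Its late pubertal levels were 7.56, 7.58 and 7.72 and its early pubertal levels 7.06, 7.08 and 7.13, among the tightest groups of the 10. The difference was 0.53 ± 0.12, while its other probe sets gave −0.02 and −0.36. Rad18, a ubiquitin ligase of DNA damage tolerance, stood at 7.58, 7.85 and 7.59 against 7.18, 6.98 and 7.06, a difference of 0.60 ± 0.14 on its one tested probe set. Zcchc9, a zinc-knuckle protein, differed by 0.68 ± 0.17. Sorl1, a sorting receptor for the amyloid precursor protein, was the brightest of the 10 and differed by 0.33 ± 0.08, and its other 6 probe sets ran from −0.15 to 0.22.

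Juvenile levels lay nearer to the late than to the early pubertal mean for 9 of these 10 genes, S100g being the exception. The genes were chosen partly for low early pubertal values, so this count is a description only. Among the 10 genes lower in late pubertal animals, the juvenile mean was nearer to the early pubertal mean for 8. Those genes were chosen partly for low late pubertal values, so that count is also a description only. The juvenile mean lay between the 2 stage means for 9 of the 10 lower and 7 of the 10 higher genes.

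**Figure D2:**
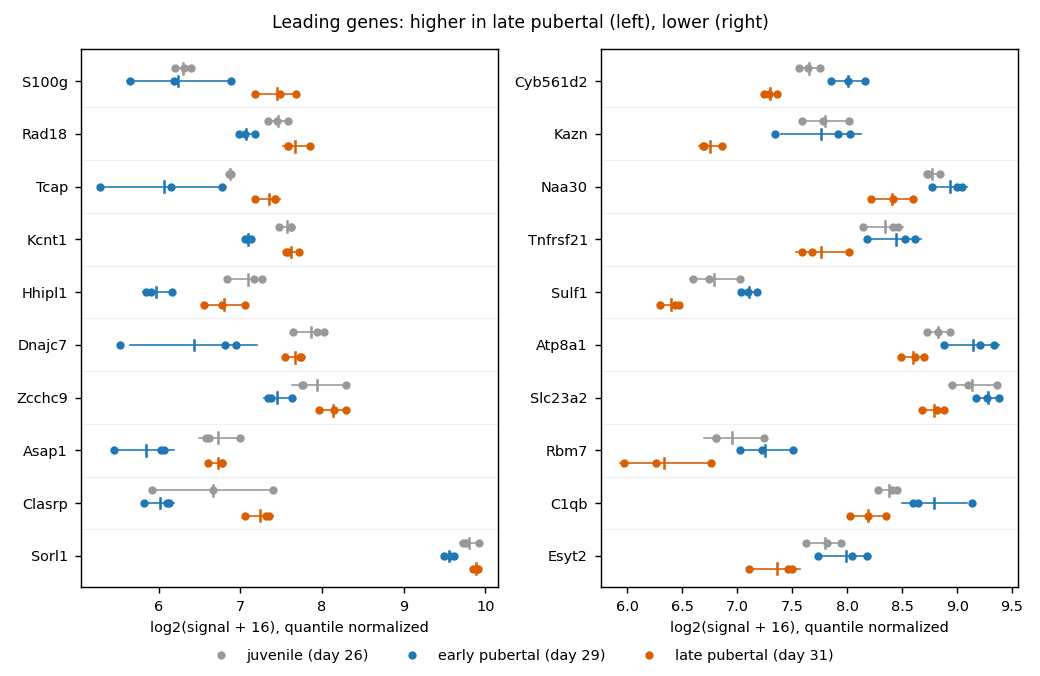
Points are single arrays on the log2(signal + 16) scale for the 10 leading genes higher (left) and the 10 lower (right) in late pubertal animals, with the mean as a tick and 1 SD as a line. Late and early pubertal points do not overlap for any of them, by the rule that chose them, and juvenile points often lie between or beside one of the stages, as for Tcap at 6.88.

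Genes lower in late pubertal animals included membrane, lipid and extracellular matrix genes, with folds of up to 2.02. Cyb561d2, a transmembrane cytochrome b561 family member, had the smallest p of all named genes. Its levels were 7.29, 7.24 and 7.36 in late and 8.01, 8.17 and 7.85 in early pubertal animals, with juvenile animals between them at 7.66 ± 0.0959 (SD, n = 3). The difference was −0.71 ± 0.13, a 1.63-fold lower level with a limma adjusted p of 0.914. Kazn, which encodes the junction and cytoskeleton protein kazrin, stood at 6.70, 6.68 and 6.86 in late and 8.02, 7.91 and 7.34 in early pubertal animals. Its difference was −1.01 ± 0.19, with −0.26 and 0.17 on its other probe sets.

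Sulf1, an extracellular sulfatase that trims heparan sulfate, gave 6.47, 6.43 and 6.29 in late against 7.03, 7.09 and 7.18 in early pubertal animals. Both groups were narrow, and the difference was −0.71 ± 0.16 on its one tested probe set. Atp8a1, a phospholipid flippase, differed by −0.54 ± 0.13, with −0.01 and −0.07 on its other probe sets. Slc23a2, the neuronal vitamin C transporter, differed by −0.48 ± 0.12, with −0.18 on the other. Esyt2, which tethers endoplasmic reticulum to the plasma membrane, differed by −0.63 ± 0.16 on this probe set and 0.08 on the other.

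Tnfrsf21, also called death receptor 6, had levels of 7.68, 8.02 and 7.59 against 8.18, 8.61 and 8.53. The difference was −0.68 ± 0.16, and −0.27 on its other probe set. Naa30, the catalytic subunit of an N-terminal acetyltransferase, differed by −0.53 ± 0.12, with 0.04 on its other probe set. Rbm7, which targets RNA to the nuclear exosome, differed by −0.92 ± 0.23. C1qb, a chain of complement C1q made by microglia, stood at 8.35, 8.02 and 8.19 in late and 8.60, 9.13 and 8.64 in early pubertal animals, a difference of −0.60 ± 0.15.

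Gene lists by function are described next by counts and medians, each gene by its brightest tested probe set. Over all 10600 tested genes the median difference was 0.0004 and 50.1% were higher in late pubertal animals. Arrays did not overlap for 5.59% of genes on the higher side and 5.25% on the lower side, and 2.49% and 2.17% had an unadjusted limma p under 0.05. No list had a member past the adjusted threshold, where the share over all genes was 0%.

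Immediate early genes, which neuronal activity and growth factors induce within minutes, had the highest list median. Of 16 tested members 14 were higher and 2 lower in late pubertal animals, and the median difference was 0.16. Arrays did not overlap for 2 of 16, both higher, and 3 had an unadjusted limma p under 0.05. Fos, the activity-induced AP-1 transcription factor, had levels of 9.32, 8.56 and 8.40 in late and 7.75, 7.74 and 8.50 in early pubertal animals. Its groups overlapped through early pubertal replicate 10 and late pubertal replicate 20, and the difference was 0.76 ± 0.24. Without late pubertal replicate 12 the Fos difference was 0.48, and without early pubertal replicate 10 it was 1.01. Juvenile levels of Fos were 9.11, 9.24 and 8.93, above all early pubertal arrays.

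Egr1, a zinc-finger transcription factor, stood at 9.87, 9.54 and 9.47 in late against 8.80, 9.39 and 9.38 in early pubertal animals, a difference of 0.44 ± 0.16 without overlap. It was 0.24 without early pubertal replicate 7. Ier2, another immediate early transcript, had 7.78, 7.60 and 7.95 against 7.56, 7.32 and 7.08, a difference of 0.46 ± 0.16, also without overlap. Egr4 had a larger but less precise value of 0.66 ± 0.34. Arc, a synaptic plasticity gene, and Jun, the partner of Fos, were the 2 members on the other side, at −0.24 ± 0.29 and −0.04 ± 0.09. Leaving out each array in turn kept 11 to 15 of the 14 to 17 members then tested higher, with list medians from 0.09 to 0.24 relative to all genes.

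Glucocorticoid-responsive genes were chosen as targets of the adrenal steroid receptors, and 21 of 25 tested members were higher in late pubertal animals, with a median of 0.10. Arrays did not overlap for 2 of 25 on the higher side and 0 on the lower. Sgk1, a kinase that corticosteroids induce, had levels of 10.19, 10.94 and 10.10 in late and 9.29, 9.91 and 10.05 in early pubertal animals. The difference was 0.66 ± 0.25, and the highest early pubertal array lay just below the lowest late pubertal one. Klf9, a transcription factor that corticosteroids and thyroid hormone induce, stood at 11.03, 11.12 and 11.10 against 10.89, 10.60 and 10.97. Its difference was 0.26 ± 0.09, or 0.15 without early pubertal replicate 8, and −0.02 on its other probe set.

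Other glucocorticoid-responsive members did not share this separation. Plekhf1 differed by 0.32 ± 0.15 and Errfi1, a feedback inhibitor of erbB receptors, by 0.34 ± 0.17. Fkbp5, which restrains steroid binding by the glucocorticoid receptor, had a value of 0.08 ± 0.11. Tsc22d3, a direct target of the glucocorticoid receptor also known as GILZ, had one of −0.18 ± 0.18. Mt2A, a metal-binding metallothionein, had the lowest value of the list at −0.33 ± 0.14. The list median stayed between 0.08 and 0.13 relative to all genes without any one array. The mean level of the list was 9.18, 9.27 and 9.12 in late and 8.99, 8.96 and 9.19 in early pubertal animals. On that level the stages overlapped, through early pubertal replicate 10.

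Genes of the circadian oscillator were higher for 12 of 19 members with a median of 0.01. Per1, a clock repressor that glucocorticoids also induce, had 7.36, 7.64 and 6.81 in late and 6.55, 5.29 and 7.41 in early pubertal animals, so its groups overlapped at a difference of 0.85 ± 0.43. Per3 differed by 0.47 ± 0.20 without overlap. Its activator Bmal1, at 7.15, 7.13 and 7.05 against 7.58, 7.25 and 7.32, differed by −0.27 ± 0.13, and Nr1d1, the repressor REV-ERBα, by −0.21 ± 0.12. Both lay below early pubertal animals on all 3 late pubertal arrays, as did Bhlhe40 at −0.36 ± 0.30, so 3 of 19 members were separated downwards and 1 upwards. The labels give no time of day for tissue collection.

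**Figure D3:**
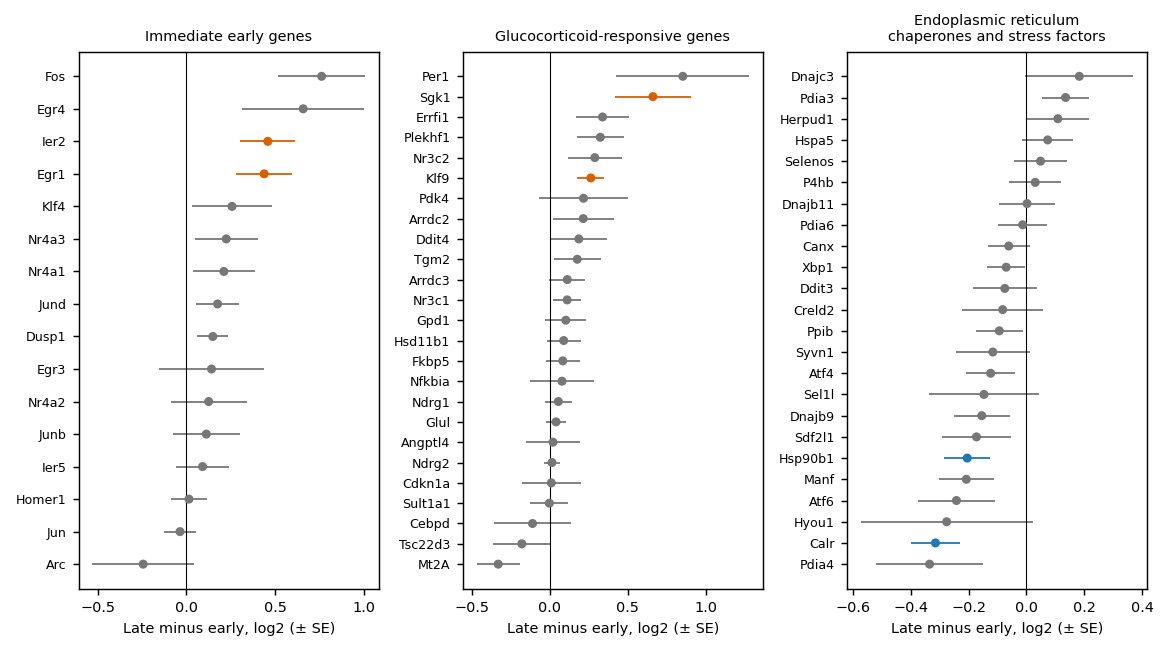
Late minus early pubertal log2 difference of every tested immediate early, glucocorticoid-responsive and endoplasmic reticulum gene, with the SE of the fit as a line. Coloured points are genes whose 3 late and 3 early pubertal arrays do not overlap (orange higher, blue lower). In the first panels 14 of 16 and 21 of 25 members lie right of 0, and in the third 17 of 24 lie left of it.

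Endoplasmic reticulum chaperones and stress factors, which fold secreted proteins and respond when folding fails, were lower for 17 of 24, with a median of −0.09. Arrays did not overlap for 2 members, both lower, and 3 had an unadjusted limma p under 0.05. Calr encodes the calcium-binding chaperone calreticulin. Its levels were 10.05, 10.17 and 10.13 in late and 10.31, 10.55 and 10.44 in early pubertal animals, a difference of −0.31 ± 0.09. Hsp90b1, the chaperone GRP94, stood at 10.92, 10.97 and 10.85 against 11.00, 11.18 and 11.19, a difference of −0.20 ± 0.08.

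Manf, a secreted stress-induced factor, differed by −0.21 ± 0.09 and the stress sensor Atf6 by −0.24 ± 0.13, both with overlapping arrays. Hspa5, the main luminal chaperone BiP, did not share their sign, at 0.07 ± 0.09. The count of higher members ran from 4 to 8 when single arrays were left out. The mean level of this list was 9.60, 9.65 and 9.72 in late and 9.73, 9.71 and 9.80 in early pubertal animals. On that level the stages overlapped.

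Promoters of 4 genes whose arrays did not overlap, from this list, the immediate early list and the proposed puberty regulators, are shown because each holds a complete match to a response element. They were chosen after their values were seen, and the non-overlapping Egr1 and Eed of the same lists are not shown. They cover the 250 bases before the annotated gene start in RefSeq on the rat build GRCr8, 5′ to 3′ on the gene's strand. Capitals mark the match, which is the endoplasmic reticulum stress response element (CCAAT, then 9 bases of any kind, then CCACG) in Calr and Hsp90b1 and the cAMP response element TGACGTCA in Ier2 and Irf2bpl, both searched on both strands. Calr lies at chr19:40213117-40213366 on the plus strand, Hsp90b1 at chr7:23012294-23012543 on the minus strand, Ier2 at chr19:40399123-40399372 on the plus strand and Irf2bpl at chr6:112262265-112262514 on the minus strand.
Calr: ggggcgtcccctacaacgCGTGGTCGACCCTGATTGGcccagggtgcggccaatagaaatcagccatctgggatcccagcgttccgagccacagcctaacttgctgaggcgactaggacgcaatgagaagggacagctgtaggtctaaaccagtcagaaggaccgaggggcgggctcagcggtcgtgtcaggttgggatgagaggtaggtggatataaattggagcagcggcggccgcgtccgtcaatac
Hsp90b1: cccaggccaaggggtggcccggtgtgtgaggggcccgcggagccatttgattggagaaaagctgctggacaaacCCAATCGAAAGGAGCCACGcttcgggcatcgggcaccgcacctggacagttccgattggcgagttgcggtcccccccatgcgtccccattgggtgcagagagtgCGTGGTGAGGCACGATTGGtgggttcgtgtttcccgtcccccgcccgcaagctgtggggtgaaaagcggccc
Ier2: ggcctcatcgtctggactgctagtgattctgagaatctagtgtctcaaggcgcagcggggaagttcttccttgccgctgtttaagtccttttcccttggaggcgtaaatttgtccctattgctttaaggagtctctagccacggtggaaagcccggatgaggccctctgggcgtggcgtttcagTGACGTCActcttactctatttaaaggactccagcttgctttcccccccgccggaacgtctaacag
Irf2bpl: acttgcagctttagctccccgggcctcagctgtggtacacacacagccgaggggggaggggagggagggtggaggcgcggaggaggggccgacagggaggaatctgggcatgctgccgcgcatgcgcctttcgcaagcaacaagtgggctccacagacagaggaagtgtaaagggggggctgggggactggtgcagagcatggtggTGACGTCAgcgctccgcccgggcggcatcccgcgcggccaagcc
The stress response element starts 232 bases before the Calr start, and in Hsp90b1 2 matches start 176 and 72 bases before it. The cAMP response element starts 66 bases before the Ier2 start and 44 before that of Irf2bpl. Over all 33469 windows of this length, 0.0657% held the first motif and 1.59% the second. A match is a description of these letters and does not show that a factor binds.

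Promoter windows were found for 20 of the 24 endoplasmic reticulum genes, and 7 held the stress response element. Of those 7, 5 were lower and 2 higher in late pubertal animals. Besides Calr and Hsp90b1, they were Canx at −0.06 ± 0.07, Creld2 at −0.08 ± 0.14, Xbp1 at −0.07 ± 0.07, Hspa5 at 0.07 ± 0.09 and Dnajc3 at 0.18 ± 0.19. Among 11 immediate early genes with a window, Ier2, Jund and Dusp1 held the cAMP response element. Jund differed by 0.18 ± 0.12 and the phosphatase Dusp1 by 0.15 ± 0.09. Of 13 proposed puberty regulators with a window, 2 held the cAMP response element, Irf2bpl and Yy1. Yy1 gave 0.04 ± 0.08 with overlapping arrays.

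Peptides and receptors that act on GnRH neurons showed no common direction, with 9 of 20 tested members higher, 11 lower and a median of −0.02. Arrays did not overlap for 1 higher and 2 lower members. Nts, the neurotensin precursor, had levels of 8.25, 8.39 and 8.30 in late and 8.72, 8.63 and 8.60 in early pubertal animals, a difference of −0.33 ± 0.12. Both stages were narrow and separated, and juvenile levels were 8.55, 8.22 and 8.16. Its receptor Ntsr1 had a value of −0.57 ± 0.26 with overlapping arrays. Tac3, which encodes neurokinin B, stood at 6.92, 7.29 and 7.37 in late against 7.48, 7.65 and 7.51 in early pubertal animals, a difference of −0.35 ± 0.17, or −0.21 without late pubertal replicate 12.

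The progesterone receptor Pgr, an estrogen-induced gene needed for the preovulatory GnRH surge, was separated in the other direction. Its levels were 7.07, 6.72 and 6.93 in late and 6.52, 6.32 and 6.51 in early pubertal animals, a difference of 0.45 ± 0.21. Juvenile levels of Pgr ran from 6.29 to 7.04 and spanned both stages. The other peptide precursors overlapped between stages. Tac1, the substance P precursor, gave −0.30 ± 0.18 and galanin (Gal) −0.23 ± 0.14. The enkephalin precursor Penk gave −0.11 ± 0.10, the dynorphin precursor Pdyn 0.05 ± 0.13 and Vip 0.10 ± 0.19. Npvf, the source of RFamide peptides that restrain GnRH neurons, gave 0.01 ± 0.23, and the feeding peptides Npy and Cartpt 0.02 ± 0.12 and 0.05 ± 0.09.

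Receptors in this list likewise overlapped. The neurokinin receptors Tacr3 and Tacr1 gave 0.20 ± 0.26 and 0.11 ± 0.21, and the dynorphin receptor Oprk1 −0.23 ± 0.20. The RFamide receptors Npffr1 and Npffr2 gave −0.03 ± 0.31 and −0.19 ± 0.25. Values of the neuropeptide Y receptors Npy1r and Npy5r were 0.14 ± 0.11 and −0.07 ± 0.16, and the leptin receptor Lepr gave −0.01 ± 0.23. The SE of Tacr3, Tacr1, Npffr1, Npffr2, Npy5r and Lepr exceeded their differences. The differences of Oprk1 and Npy1r were slightly larger than their SE, with unadjusted limma p of 0.276 and 0.254. None of these receptors could be told from no difference.

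A further 9 members lay below the signal filter and were fitted only without it. Gnrh1 itself had levels of 6.01, 6.29 and 5.75 in late and 6.26, 5.40 and 6.01 in early pubertal animals, a value of 0.12 ± 0.26. The kisspeptin receptor Kiss1r gave −0.03 ± 0.39, and the estrogen receptors Esr1 and Esr2 −0.10 ± 0.20 and 0.06 ± 0.17. Pomc, the melanocortin precursor, gave −0.27 ± 0.19 at levels of 4.31 to 4.38 in late pubertal animals. Kiss1 and Agrp are not analysed here.

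**Figure D4:**
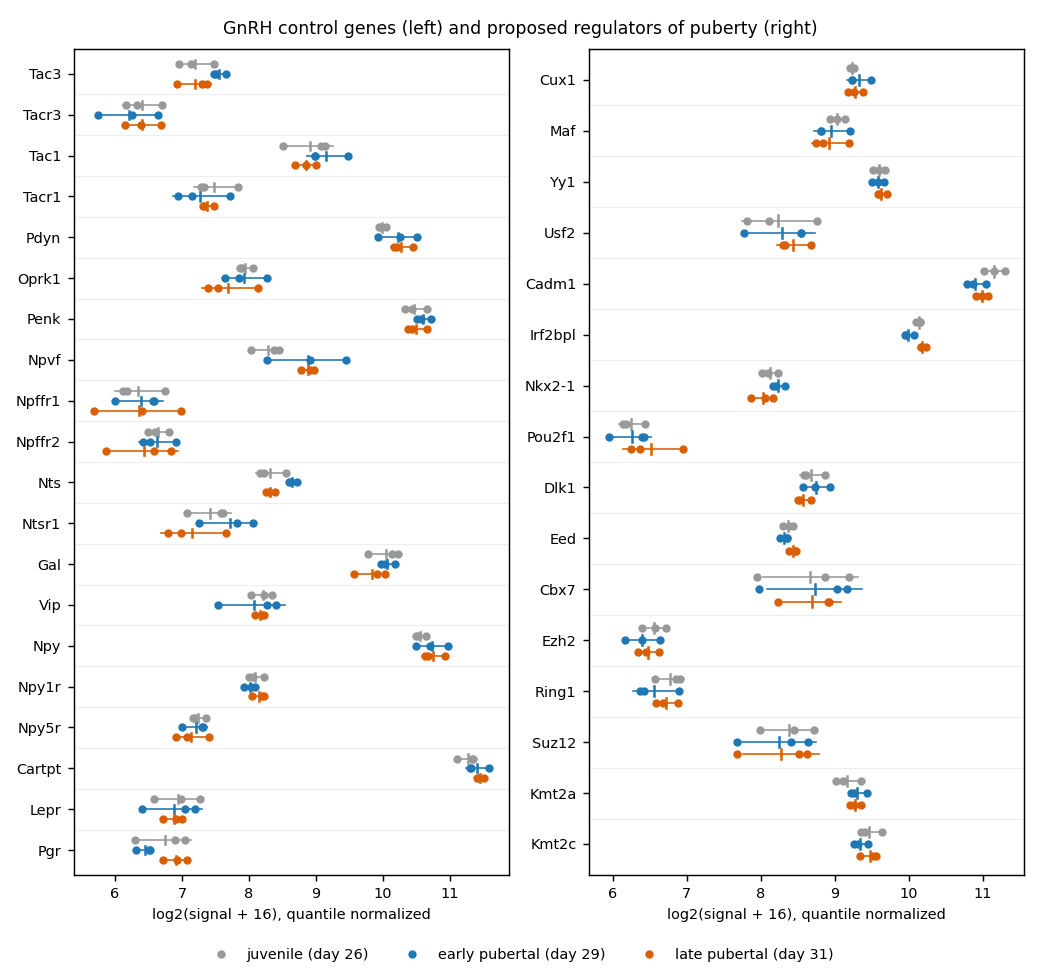
Points are single arrays on the log2(signal + 16) scale for the 20 tested GnRH control genes (left) and the 16 proposed regulators of puberty (right), with the mean as a tick and 1 SD as a line. Late and early pubertal points are apart for Nts, Tac3, Pgr, Irf2bpl and Eed, and overlap for the other 31 genes.

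Proposed regulators of puberty were higher for 10 of 16 members, with a median of 0.055. Some of these genes may have been put forward from these samples, so the list is not independent evidence of its direction. Irf2bpl, a nuclear regulator known as EAP1 that acts on the Gnrh1 promoter, had 10.23, 10.15 and 10.16 in late and 9.96, 9.94 and 10.06 in early pubertal animals. The groups did not overlap, the difference was 0.19 ± 0.07, and juvenile levels of 10.14, 10.15 and 10.10 lay beside the late pubertal ones. Eed, a Polycomb subunit, was also separated at 0.12 ± 0.10. Nkx2-1, a homeobox factor of the developing hypothalamus, gave −0.20 ± 0.12 and the imprinted gene Dlk1 −0.18 ± 0.12.

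Arrays of the 2 stages overlapped for the remaining regulators on their brightest probe set. The homeobox factor Cux1 gave −0.05 ± 0.10, with 0.38 ± 0.17 and no overlap on its other probe set, and Maf −0.02 ± 0.14. Yy1 gave 0.04 ± 0.08, Usf2 0.15 ± 0.25, Pou2f1 0.26 ± 0.23 and the adhesion molecule Cadm1 0.10 ± 0.09. Among chromatin genes, Ezh2 gave 0.07 ± 0.19, Suz12 0.03 ± 0.29, Ring1 0.15 ± 0.19 and Cbx7 −0.04 ± 0.34. The histone methyltransferases Kmt2a and Kmt2c gave −0.03 ± 0.11 and 0.13 ± 0.10, and the other Kmt2a probe set 0.73 ± 0.32 with overlapping arrays.

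Hormones of magnocellular and hypophysiotropic neurons and their receptors were higher for 9 of 19 members, with a median of −0.07. The somatostatin receptor Sstr2 had levels of 7.74, 7.61 and 7.89 in late and 7.14, 7.46 and 7.34 in early pubertal animals, a difference of 0.43 ± 0.13 without overlap, and 0.04 on its other probe set. Th, the rate-limiting enzyme of dopamine synthesis, stood at 8.50, 8.53 and 8.39 against 8.65, 8.95 and 8.90, a difference of −0.36 ± 0.18. Slc6a3, the dopamine transporter, was separated the other way at 0.59 ± 0.39, or 0.26 without early pubertal replicate 8. Trhr, the receptor of thyrotropin-releasing hormone, differed by −0.27 ± 0.11, and the prolactin receptor Prlr by 0.42 ± 0.23, with 0.02 on its other probe set. Oxt and Avp gave 0.15 ± 0.39 and 0.06 ± 0.23. Peptide-processing enzymes and granins were higher for 9 of 15 members, with a median of 0.01, and the carboxypeptidase Cpd was separated at 0.21 ± 0.10.

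Genes of GABA signalling, the main inhibitory transmission, were lower for 15 of 19 members, with a median of −0.06. Slc32a1, the transporter that loads GABA into vesicles, had 9.43, 9.23 and 9.27 in late and 9.66, 9.84 and 9.47 in early pubertal animals. The difference was −0.34 ± 0.10 without overlap, and juvenile levels of 9.69, 9.69 and 9.77 lay with the early pubertal ones. The synthesizing enzymes Gad1 and Gad2 gave −0.04 ± 0.06 and −0.17 ± 0.27. The SE of Gad2 is too wide to tell its value from that of Slc32a1. Members of the list ran from −0.41 to 0.24. Gphn, gephyrin, which anchors GABA receptors, was separated upwards at 0.20 ± 0.09. The breakdown enzyme Abat gave −0.28 ± 0.16.

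Genes of glutamate signalling were higher for 16 of 25 members, with a median of 0.04. The metabotropic receptor Grm3 was the one separated member, at 0.20 ± 0.11, and the receptor subunit Grin3a gave 0.28 ± 0.15. Synaptic vesicle proteins were lower for 11 of 19, with a median of −0.06. The active-zone scaffold Bsn (bassoon) stood at 9.72, 9.90 and 9.93 against 9.67, 9.36 and 9.54, a difference of 0.33 ± 0.11. Syt11 gave −0.80 ± 0.33, with early pubertal replicate 8 high at 9.91, and −0.44 without that array. Among amine genes, 9 of 18 were higher, and the serotonin receptor Htr1b differed by −0.51 ± 0.20 without overlap. The late pubertal mean of Htr1b, at 6.19, lay below the filter level of 6.301.

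Ion channels were balanced. Potassium channel genes were higher for 15 of 31 members, with Kcna1 separated at 0.32 ± 0.15 and Kcnk1 at −0.42 ± 0.20. Calcium and sodium channel genes were higher for 13 of 23, with the pacemaker channel Hcn2 separated at 0.31 ± 0.14.

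Glial growth factor, TGF and prostaglandin signalling genes, which carry astrocyte and tanycyte signals to GnRH neurons, held 4 of 20 members separated downwards, beside 5.25% of all genes, and 1 upwards. Their median was 0.01. Of 35 genes put on the list, 13 lay below the signal filter and were not tested. Among them were Erbb2, Erbb4, Nrg1, Ptgs2, Ptges and the prostaglandin receptors Ptger1, Ptger2, Ptger3 and Ptger4. Nrg2, a neuregulin ligand of erbB receptors, had 6.22, 6.42 and 5.98 in late and 7.13, 6.98 and 6.82 in early pubertal animals, a difference of −0.77 ± 0.22. Tgfbr3, the TGF-beta coreceptor betaglycan, stood at 6.28, 6.21 and 6.45 against 7.10, 6.85 and 6.67, a difference of −0.56 ± 0.18. The late pubertal mean of Nrg2, at 6.205, lay below the filter level of 6.301, and that of Tgfbr3, at 6.31, just above it. Both differences therefore rest on dim late pubertal values. Smad3, a TGF-beta signal transducer, gave −0.24 ± 0.15, and the FGF receptor Fgfr2 was separated upwards at 0.17 ± 0.09, with −0.11 on its other probe set.

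Genes of immature neurons and axon growth were higher for 15 of 28 members, with a median of 0.02. Dpysl5 differed by 0.21 ± 0.10 and Marcksl1 by −0.14 ± 0.06, both separated. Patterning transcription factors were higher for 10 of 16, and Meis2 gave −0.51 ± 0.23 with overlapping arrays. The late pubertal mean of Meis2, at 6.11, lay below the filter level of 6.301. IGF ligands, receptors and binding proteins were higher for 8 of 12, adhesion molecules for 11 of 25 and steroid-metabolizing enzymes for 8 of 14, with medians of 0.04, −0.01 and 0.02. The synaptic adhesion gene Nlgn2 was separated at 0.49 ± 0.24, with −0.10 on its other probe set.

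Metabolic and housekeeping lists lay near the median of all genes. Cholesterol synthesis enzymes were lower for 14 of 23, with a median of −0.01. Fdps, farnesyl diphosphate synthase, had 10.55, 10.55 and 10.59 in late and 10.76, 10.88 and 10.81 in early pubertal animals, a difference of −0.25 ± 0.07, and Mvk, mevalonate kinase, one of −0.25 ± 0.12. Both were separated, while the sterol oxidase Msmo1 gave 0.13 ± 0.07. Oxidative phosphorylation subunits were lower for 42 of 68, with a median of −0.01. Its members Ndufb11 and Ndufa5 gave −0.49 ± 0.19 and −0.49 ± 0.20 with overlapping arrays, and Sdha −0.14 ± 0.06 without overlap.

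Cytosolic ribosomal proteins were higher for 23 of 39, with a median of 0.01 and a range from −0.16 to 0.21. Heat shock and DnaJ proteins were higher for 13 of 26, interferon-inducible genes for 10 of 20 and cell cycle genes for 13 of 27. Dnajb2 was separated at −0.20 ± 0.09. The cyclin Ccnd2 gave 0.54 ± 0.26 with early pubertal replicate 7 low at 8.03, beside 9.36 and 9.19 in the other early pubertal animals.

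**Figure D5:**
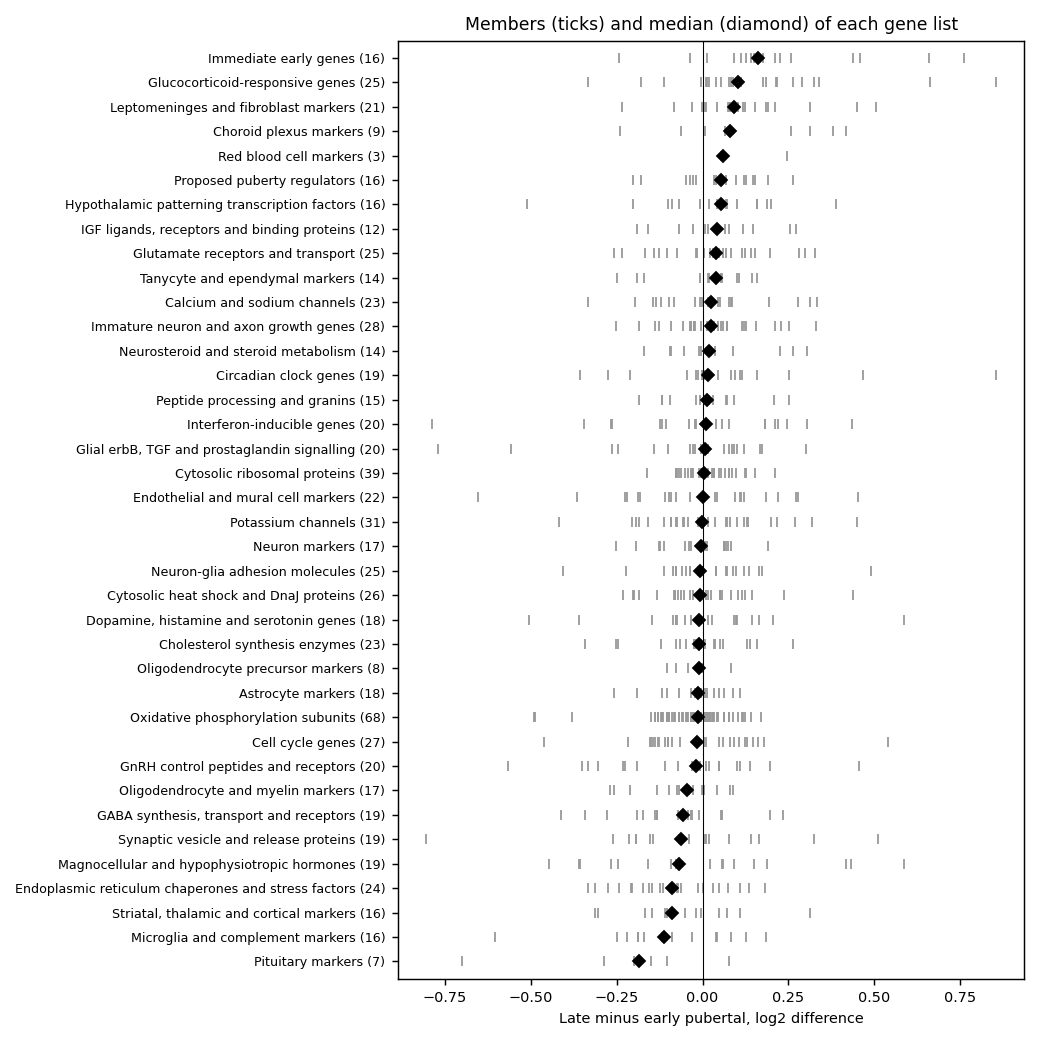
Each row is a gene list with its number of tested genes in parentheses. Ticks are members, the diamond is their median, and the horizontal axis is the late minus early pubertal log2 difference. Medians run from −0.19 for pituitary markers to 0.16 for immediate early genes, and the members of nearly every list lie on both sides of 0.

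Markers of the cell types that a dissected hypothalamus can hold were also described, since in whole tissue fewer cells of a type and less RNA per cell cannot be told apart. Microglia and complement markers were lower for 11 of 16 members, with a median of −0.11. Besides C1qb, the growth factor receptor Csf1r was separated at −0.25 ± 0.10, and C1qa gave −0.22 ± 0.11 and C1qc −0.11 ± 0.16. The other 5 members were higher, and Laptm5, a lysosomal membrane protein of immune cells, was separated upwards at 0.18 ± 0.17. The microglial receptors Cx3cr1 and P2ry12 gave −0.12 ± 0.27 and −0.09 ± 0.16. The summed level of the 16 markers ran from 7083 to 8283 in late and from 7771 to 8415 in early pubertal animals, so the stages overlapped.

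Neuron markers were higher for 8 of 17 with a median of −0.0044, and Rbfox3, the neuronal nuclear antigen NeuN, was separated at 0.19 ± 0.08. Astrocyte markers were higher for 7 of 18 and oligodendrocyte and myelin markers for 5 of 17, with medians of −0.01 and −0.04. Oligodendrocyte precursor markers were higher for 1 of 8, with a median of −0.01. Tanycyte and ependymal markers were higher for 10 of 14, with a median of 0.04. Endothelial and mural markers were higher for 11 of 22, and the junction protein Esam was separated at −0.37 ± 0.12, with 7.97, 8.21 and 7.88 against 8.43, 8.34 and 8.38.

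Leptomeninges and fibroblast markers were higher for 17 of 21 members, with a median of 0.09, and arrays overlapped for all 21. Their summed level ran from 24761 to 27714 in late and from 22948 to 29089 in early pubertal animals, so the early pubertal range held the late one. Choroid plexus markers were higher for 7 of 9, with summed levels of 8496 to 9647 and 7818 to 9787. Leaving out single arrays moved the leptomeninges median relative to all genes between 0.01 and 0.27. The part of these membranes in the other lists' values was not tested.

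Among 7 tested pituitary markers 6 were lower, and the median was −0.19. That median was the value of a granin that the peptide-processing list also holds. Arrays overlapped for all 7. The summed level ran from 2725 to 3311 in late and from 3134 to 4068 in early pubertal animals, so the stages overlapped. Cga, the common subunit of glycoprotein hormones, stood at 10.45, 10.70 and 10.86 in late and 10.62, 10.89 and 11.10 in early pubertal animals, a value of −0.20 ± 0.23. Tshb, the thyrotropin subunit, gave −0.70 ± 0.65, with single arrays of both stages and of juvenile animals high at 7.59, 7.99 and 9.18. Prl and Gh1 were below the signal filter. Markers of striatum, thalamus and cortex, which border the dissection, were lower for 12 of 16, with a median of −0.09. The part of these tissues in the other values was not tested.

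Transcripts of red blood cells set late pubertal replicate 14 apart. Hbb, a beta-globin chain, had 12.41, 13.16 and 12.29 in late and 12.54, 12.62 and 12.53 in early pubertal animals. Alas2, the erythroid enzyme of heme synthesis, had 7.94, 9.49 and 7.55 against 8.06, 8.31 and 7.88. Both were highest in replicate 14, which also had the highest Sgk1 value. Without that array the Sgk1 difference was 0.40. The part of blood in the Sgk1 values was not tested.

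The scaling of the arrays bears on these counts. Without normalization between arrays, the median difference over all tested probe sets was 0.22, 91.4% of probe sets were higher in late pubertal animals, and limma called 21, all higher. Of these 21, 17 carry 1 gene symbol, and they include S100g, Tcap, Dnajc7, Clasrp, Zcchc9, Fos and Sgk1. S100g then differed by 1.41 with a limma adjusted p of 0.0293. Fos differed by 0.98 with a limma adjusted p of 0.0394, and Sgk1 by 0.88 with one of 0.0430. On normalized values 19 of the 21 had arrays that did not overlap, and none passed. Over all tested probe sets 5.97% were separated upwards. The 21 were picked for high late pubertal values on these same arrays, so the count of 19 is a description only.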

How the data were processed

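Total RNA of 9 hypothalami was labelled with biotin and hybridized to Affymetrix rat arrays, per the labels' protocols. The authors deposited 1 signal intensity per probe set, made with MAS5 per the submitters' processing notes, and the sources used here do not give its version or scaling target. Of 31099 probe sets, 57 controls were left out. Of the other 31042, 20826 carried 1 gene symbol, 436 several and 9780 none, and only the first were named. Of these, 20758 matched a RefSeq gene and 0 symbols changed.

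From the deposited intensities, log2(signal + 16) was quantile normalized over the 9 arrays. The 18625 probe sets whose mean lay above the 40th percentile were tested with limma 3.58.1 in R 4.3.3, using lmFit and eBayes with an intensity trend, 1 mean per stage and Benjamini-Hochberg adjustment at 0.05. The number of arrays limits the precision. In data simulated for late minus early pubertal over 18625 probe sets, the same fit recovered 152 of 200 changes of 1 on the log2 scale and 20 of 200 changes of 0.5. The simulated noise was independent, with 1 spread per probe set for all 9 arrays and no array effects. Recovery in the real arrays can therefore be lower.

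Per direction, the 10 genes with the smallest p and no overlap between stages were named, then up to 4 per list by p and every tested GnRH control and puberty regulator gene. The comparison and the lists were chosen with earlier results of these data known. Arc, Jun, Jund, Dusp1, Fkbp5, Tsc22d3, Errfi1, Bhlhe40, Hspa5, Canx, Creld2, Xbp1, Dnajc3, Gad1, Gad2, C1qc, Cx3cr1, P2ry12, Laptm5, Oxt, Avp and Pmch fall outside that rule and were chosen after their values were seen. The alternatives tried were the constant, the normalization, the filter, the variance prior, array weights, the arrays in the fit, the threshold, the probe set of a gene and leaving out each array.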

Additional observations from a re-analysis of the deposited data

How the results depend on the processing

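Limma called 0 probe sets under every alternative run except the level as deposited, where it called 21, all higher in late pubertal animals, and 3181 higher and 25 lower at an unadjusted p under 0.05. That setting moved the median of all tested probe sets by 0.22. Without any one array limma called 0, and the difference in median signal ran from 11.1 to 23.0. With the trimmed mean in place of the median, that difference was 40.4 (exact permutation p = 0.2). Of 135 named genes, 29 changed sign at the level as deposited, with log2 differences of C1qa 0.011, C1qc 0.13, Canx 0.10, Cbx7 0.21, Creld2 0.15, Cux1 0.18, Cx3cr1 0.11, Dlk1 0.053, Dnajb2 0.017, Gad1 0.14, Gad2 0.065, Jun 0.19, Kmt2a 0.20, Lepr 0.21, Maf 0.21, Manf 0.016, Marcksl1 0.052, Nkx2-1 0.0396, Npffr1 0.19, Npffr2 0.028, Npy5r 0.16, Nr1d1 0.035, Oprk1 0.0007, P2ry12 0.15, Penk 0.10, Pmch 0.075, Sdha 0.034, Tsc22d3 0.043 and Xbp1 0.14. The unequal level of the arrays is part of that setting by construction. With median centring 2 changed sign, Hbb −0.016 and Npy −0.0013. With array weights 7 changed sign, Avp −0.012, Cbx7 0.16, Npffr1 0.081, Npvf −0.15, Npy −0.048, Oxt −0.014 and Suz12 −0.015. Leaving out single arrays turned the sign of 29, over ranges of Alas2 −0.33 to 0.64, Arc −0.48 to 0.069, Avp −0.25 to 0.23, Canx −0.15 to 0.0077, Cartpt −0.0027 to 0.14, Cbx7 −0.41 to 0.19, Cux1 −0.10 to 0.0399, Cx3cr1 −0.27 to 0.044, Ezh2 −0.049 to 0.19, Gad2 −0.49 to 0.12, Hbb −0.21 to 0.22, Hspa5 −0.046 to 0.16, Jun −0.074 to 0.0086, Kmt2a −0.069 to 0.038, Lepr −0.25 to 0.15, Maf −0.15 to 0.11, Npffr1 −0.22 to 0.31, Npffr2 −0.40 to 0.093, Npvf −0.30 to 0.30, Npy −0.10 to 0.14, Npy5r −0.21 to 0.042, Oxt −0.43 to 0.46, P2ry12 −0.22 to 0.027, Pdyn −0.10 to 0.18, Suz12 −0.25 to 0.33, Tacr1 −0.054 to 0.34, Tacr3 −0.036 to 0.42, Usf2 −0.11 to 0.28 and Vip −0.17 to 0.27. Without early pubertal replicate 7, Bmal1 had a difference of −0.18, Cpd 0.12, Ndufb11 −0.32 and Ndufa5 −0.74. Meis2 had −0.26 without early pubertal replicate 8, and Mt2A −0.15 without late pubertal replicate 20. On the brightest probe set of each gene 2 changed sign, Esyt2 0.084 and Kcnt1 −0.021. The cause was not tested. The constant, the filters, the variance prior and the choice of arrays in the fit turned the sign of 0 named genes. List medians near 0 also turned: those of 23 of 38 lists did so relative to all genes when an array was left out, and the peptide-processing median was −0.04 with median centring. No paired analysis was possible because the replicate numbers of the 2 stages differ.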
